A study of Mus musculus with 32 samples.

Results

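GSAT_MM is the mouse major satellite, and the row of that name is 1 of 1153 repeat subfamilies counted in these libraries and 1 of 9 of class Satellite. It was selected on its measured levels in these same libraries, so its levels and differences are given as a description, with no test and no p-value. The study measured poly(A) RNA in 32 libraries, 16 groups of 2, from mouse growing oocytes, oocytes in metaphase II (MII), embryos of 2 cells (2C) or 4 cells (4C), and AB2.2, a mouse embryonic stem cell (ESC) line. Growing oocytes were taken at postnatal day 14 (P14), untreated, and were transgenic either for H3.3K4M, a histone H3.3 with methionine in place of lysine 4, or for H3.3WT. No source used here names the promoter of the transgene. MII oocytes were untreated and wild type, and the donor females were 8 weeks (8w) or 12 months (12m) old. All embryos were wild type and, by their titles, from in vitro fertilisation. The group 2C 12m holds untreated embryos of 12-month females. The other embryos came from females of 6 to 8 weeks and received the DNA polymerase inhibitor aphidicolin (APH), the translation inhibitor cycloheximide (CHX), the proteasome inhibitor MG132, or DMSO as vehicle. Wild-type AB2.2 cells received CHX, MG132 or DMSO; the titles of all 6 of these libraries, vehicle included, carry the word Long, which no source used here explains. No dose or time of treatment is given in the sources used here, so equal labels at 2 and 4 cells do not show equal exposure.

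Mouse chromosomes carry long arrays of the major satellite next to their centromeres, where they form the pericentromeric heterochromatin seen as chromocenters. The arrays are kept compact by trimethylation of histone H3 at lysine 9, by HP1 proteins that bind this mark, and by DNA methylation. Transcripts of the arrays are known in early mouse embryos, in which the paternal arrays first lack the usual heterochromatin marks and Polycomb proteins are found there.

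The repeat unit is shown because it fixes what the counts can and cannot separate. A transcript of the lincRNA model Gm26870, whose gene spans chromosome 9 from 3000282 to 3038313 on the minus strand (build GRCm38, GENCODE M21), matched itself best at a shift of 234 bases, with 95.93% identity, against 60.4% at a shift of 58 bases. One unit of it from an exon at chr9:3034903-3035136, minus strand, follows with its 5 CG dinucleotides in capitals; these are the positions that DNA methylation acts on. The unit holds 45.7% A, 18.4% T and 35.9% G or C, and its longest run of A is 6 bases. Below it is the aligned unit within an exon of Gm10800 at chr2:98666747-98666980, printed on the plus strand although that gene runs on the minus strand. Its 11 differences from the first unit are in capitals (95.3% identity).

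Gm26870: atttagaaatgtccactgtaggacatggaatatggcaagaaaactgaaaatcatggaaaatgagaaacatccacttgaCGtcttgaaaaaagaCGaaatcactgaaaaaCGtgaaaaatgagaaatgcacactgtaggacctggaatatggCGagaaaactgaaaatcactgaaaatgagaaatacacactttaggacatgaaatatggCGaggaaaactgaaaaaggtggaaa

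Gm10800: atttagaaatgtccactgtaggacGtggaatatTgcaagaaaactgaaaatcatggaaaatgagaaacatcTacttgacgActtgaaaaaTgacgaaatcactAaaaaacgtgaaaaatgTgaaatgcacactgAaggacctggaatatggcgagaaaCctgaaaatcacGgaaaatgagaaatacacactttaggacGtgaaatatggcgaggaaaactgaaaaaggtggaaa

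Of 141767 annotated transcripts searched, 29, from 13 gene models, were covered over at least 50% of their length by matches to this repeat (99.6% or more in each), and 12 of these models have rows in the count tables (Gm26870 was not analysed here). Of the 13, 10 lie at the start of chromosome 9, between 3000282 and 3038316, Gm10800 and Gm10801 on chromosome 2, and Gm21738 on chromosome 14. They are predicted models, and their coding labels are the annotation's. Over all libraries Gm10800 held 3102 counts, Gm10801 492, Gm10718 107 and Gm21738 104. Reads of the same repeat can thus be counted as GSAT_MM or as a gene, and no source used here says how the counting shared them out. The summed counts of these gene rows ran close to those of GSAT_MM. With both scaled to the total counts of the library, Spearman's rho was 0.878 over the 32 libraries. This is a description, since both share each library's total and group. In 4C CHX the gene rows held 886 and 1180 counts beside 916 and 1068 for GSAT_MM. In 2C DMSO they held 841 and 82 counts beside 842 and 158.

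**Figure D1:**
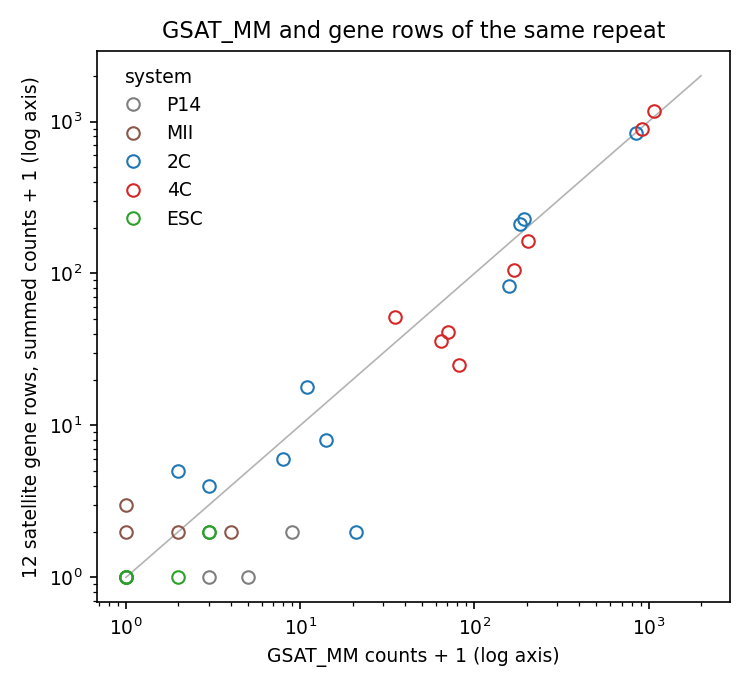
Counts of GSAT_MM (x axis) and the summed counts of the 12 satellite gene rows (y axis), each plus 1, on log axes; each circle is a library, coloured by system, and the grey line marks equal counts. The 3 libraries at the upper right are 2C DMSO rep 1 and both 4C CHX libraries.

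Total counts ranged from 14313718 to 34713159 per library. Levels are given in CPM, the counts of a row scaled to the total of all counts of its library, with SD over 2 libraries. No label ties replicates to separate animals or cultures, so any spread, and any p-value, covers only the difference between these samples. The summed CPM of 5 oocyte markers was 25688 to 27838 in growing oocytes and 3872 to 6257 in MII oocytes; 5 stem cell markers summed to 3085 to 3567 in AB2.2 libraries and to 122 or less elsewhere. The 4 fibroblast feeder markers summed to 567 to 1288 CPM in AB2.2 libraries and to far lower sums elsewhere, at most 13 in 2C CHX rep 1. All 5 markers of the 2-cell embryo, Zscan4 genes and others of embryonic genome activation, were counted in both 2C DMSO libraries (710 and 1038 CPM in sum). Of 2 lists for other cells, 6 cumulus and granulosa markers summed to 0.81 to 339 CPM, highest in 4C DMSO and 4C APH (4 or 5 of the 6 at 0 in each of those libraries), and 6 sperm markers to 27.5 CPM or less.

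GSAT_MM was high in few groups. The highest mean was in 4C CHX, at 34.6 ± 3.63 CPM (32.0 and 37.2). The 2C DMSO embryos followed at 17.6 ± 16.8 CPM, and their libraries lay far apart, at 29.5 and 5.78 CPM. Next were 4C MG132 at 6.64 ± 1.88 CPM and 2C 12m at 6.61 ± 0.33 CPM. 4C DMSO had 2.46 ± 0.466 CPM, 4C APH 1.42 ± 0.630 CPM and 2C APH 0.713 ± 0.0204 CPM. All other groups had a mean under 0.5 CPM, from 0.465 ± 0.609 CPM in 2C MG132 down to 0.0179 ± 0.0253 CPM in MII 12m. Of neighbours in this order, the libraries did not overlap in CPM between 4C CHX and 2C DMSO, between 2C 12m and 4C DMSO, between 4C DMSO and 4C APH, and between 4C APH and 2C APH. The other neighbours overlapped, among them all neighbours within the 10 lowest groups.

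**Figure D2:**
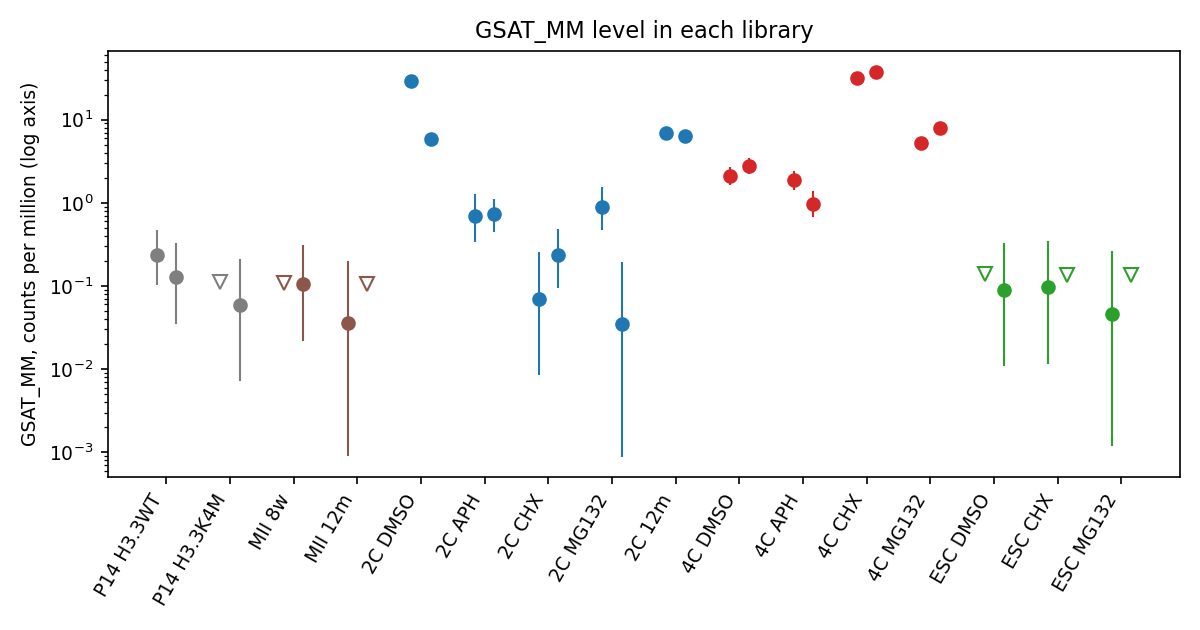
GSAT_MM level of each library in CPM (log axis), by group. Bars are 95% exact binomial intervals of the count, and open triangles mark libraries with 0 counts at the level that 3 counts would give. Both 4C CHX libraries and 2C DMSO rep 1 lie near 30 CPM, while oocytes and AB2.2 cells lie under 0.3 CPM.

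In oocytes and in AB2.2 cells the row was near the floor of detection. Both MII 8w libraries together held 3 counts (0 and 3) and both MII 12m libraries 1 count (1 and 0). The 6 AB2.2 libraries held 0 to 2 counts each, with any treatment. In the libraries with 0 counts the upper 95% limit of the level was 0.130 to 0.171 CPM, and such limits cover counting error only. No fold is given between these groups. The stem cell libraries were made with another kit, so kit and cell system cannot be told apart. The growing oocytes held 8 and 4 counts in H3.3WT (0.236 and 0.129 CPM) and 0 and 2 in H3.3K4M (0 and 0.0589 CPM). Both H3.3K4M libraries were lower than both H3.3WT libraries, with a ratio of 0.177 and a 95% counting interval of 0.0192 to 0.795. Of 1074 repeat subfamilies with a count, 55.7% were likewise lower in H3.3K4M with no overlap.

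GSAT_MM was far higher in 2-cell embryos than in MII oocytes. The counts went from 0 and 3 in MII 8w to 842 and 158 in 2C DMSO, a ratio of 333 with a counting interval of 113 to 1616. They went from 1 and 0 in MII 12m to 192 and 181 in 2C 12m, a ratio of 373 with a counting interval of 66.5 to 14770. The fitted log2 differences were 7.42 ± 1.24 (SE) and 7.91 ± 1.36, values that depend on the prior count of the fit. Neither pair of groups overlapped, and neither do most repeats: 77.8% of subfamilies were higher without overlap in 2C DMSO than in MII 8w, and 73.5% in 2C 12m than in MII 12m. By size, GSAT_MM ranked 13 and 6 of 1006 subfamilies, whose median log2 differences were 0.95 and 0.90.

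By the 4-cell stage the level in vehicle embryos was lower. The 4C DMSO libraries held 70 and 81 counts (2.13 and 2.79 CPM), both under the lower 2C DMSO library. The fitted log2 difference was -2.41 ± 0.90, but -0.95 without 2C DMSO rep 1, so its size rests on that library. Lower libraries without overlap were seen in 62.7% of subfamilies in this comparison, and the median log2 difference of repeats was -0.56.

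GSAT_MM was lower than in the vehicle with each drug at 2 cells, and higher with CHX and MG132 at 4 cells; the difference between the stages was not tested. At 2 cells, 2C APH held 10 and 20 counts (0.699 and 0.727 CPM), 2C CHX 2 and 7 (0.0707 and 0.237 CPM) and 2C MG132 13 and 1 (0.896 and 0.0344 CPM). All 6 libraries lay under the lower 2C DMSO library. The fitted log2 differences from 2C DMSO were -4.64 ± 1.10 with APH, -6.37 ± 1.23 with CHX and -5.50 ± 1.17 with MG132. Without 2C DMSO rep 1 they were -3.10, -4.80 and -3.89, and without 2C MG132 rep 1 the last was -8.84. These 3 comparisons share the 2C DMSO libraries. The background differs between them: 40% of subfamilies were lower without overlap with APH, 79% with CHX and 70.9% with MG132, and the repeats' median log2 differences were -0.43, -1.42 and -1.22. By size, GSAT_MM ranked 2 of 1016 from the lowest with APH, 29 with CHX and 13 with MG132. The summed 2-cell markers were lower with each drug too. They had 710 and 1038 CPM in 2C DMSO, 78.5 and 193 with APH, 27.4 or less with CHX, and 53.3 and 69.8 with MG132. Their part in the result was not tested.

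The embryos of 12-month females stood closer to the vehicle. At 6.84 and 6.38 CPM, both 2C 12m libraries lay between the 2C DMSO libraries. The fitted log2 difference was -1.06 ± 0.93, and 0.45 without 2C DMSO rep 1, so the data give no direction. The 12-month embryos had no vehicle, so age of the female and vehicle cannot be told apart.

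At 4 cells, 4C CHX held 916 and 1068 counts (32.0 and 37.2 CPM), both above the 70 and 81 counts (2.13 and 2.79 CPM) of 4C DMSO. The fitted log2 difference was 3.38 ± 0.57, a fold of 10.4, and 3.82 with total counts in place of the fitted library scaling. 4C MG132 held 167 and 202 counts (5.31 and 7.97 CPM), also above both 4C DMSO libraries, with a log2 difference of 1.29 ± 0.53. 4C APH held 63 and 34 counts (1.87 and 0.979 CPM), below both, with a log2 difference of -0.86 ± 0.54. These 3 comparisons share the 4C DMSO libraries. Of subfamilies with a count, 55.9% were higher without overlap with CHX, 42.1% higher with MG132 and 32.9% lower with APH; the repeats' median log2 differences were 0.24, 0.23 and -0.32. By size, GSAT_MM ranked 29 of 1003 from the highest with CHX and 130 with MG132. The 4C CHX embryos stood above the 2C DMSO group too, at 34.6 against 17.6 CPM. Scaled to repeat counts in place of all counts, 2C DMSO rep 1 lay at 148, above the 128 and 137 of the 4C CHX libraries, so that separation depends on the scaling. The summed 2-cell markers were 280 and 488 CPM in 4C CHX and 135 and 135 in 4C MG132, against 63.5 and 26.3 in 4C DMSO and 44.7 and 109 in 4C APH. The summed cumulus and granulosa markers were 4.44 and 5.67 CPM in 4C CHX, 43.5 and 75.0 in 4C MG132, 339 and 325 in 4C DMSO and 302 and 224 in 4C APH. In 4C DMSO and 4C APH most markers of this list had no counts. The sum there rests on few genes and does not identify cumulus or granulosa cells. The part of both lists in the result was not tested. In bulk samples, fewer transcribing cells and less RNA per cell cannot be told apart.

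All libraries were made by way of poly(A) RNA, which RNAs without a long poly(A) tail enter poorly. The 14 listed RNAs without such a tail, among them the 7SK RNA Rn7sk and the signal recognition particle RNA Rn7s1, summed to 83.1 to 459 CPM at 2 cells, 38.4 to 138 at 4 cells, 22.6 to 157 in MII oocytes, 2.17 to 4.48 in AB2.2 cells and 0.383 to 0.741 in growing oocytes. Beside the GSAT_MM values above, the sum was 131 and 299 CPM in 2C DMSO, 111 and 459 in 2C APH, 156 and 434 in 2C CHX and 83.1 and 85.3 in 2C MG132. At 4 cells it was 77.9 and 95.3 CPM in 4C DMSO, 48.8 and 38.4 in 4C APH, 79.0 and 100.3 in 4C CHX and 138 and 132 in 4C MG132. Like GSAT_MM, the sum lay below both vehicle libraries in 2C MG132 and 4C APH and above both in 4C MG132, while the sums with CHX at either stage overlapped the vehicle; its part in the result was not tested.

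Of the other 8 rows of class Satellite, IMPB_01, MMSAT4 and ZP3AR passed the low-count filter in each fit, and MurSAT1 and SYNREP_MM in those with embryos. They were tested by the edgeR quasi-likelihood test (Benjamini-Hochberg adjusted over repeat subfamilies). With CHX at 2 cells IMPB_01 was lower by a log2 difference of -1.64 ± 0.277 (adjusted p = 0.000936) and ZP3AR by -1.58 ± 0.401 (adjusted p = 0.00763). MurSAT1 had 0 counts in 2C CHX against 71 and 25 in 2C DMSO, at least 33.1-fold lower against a floor of 3 counts over the group (adjusted p = 0.0265), a call lost without 2C DMSO rep 1 and without either CHX library. With MG132 IMPB_01 was lower by -1.02 ± 0.273 (adjusted p = 0.0128, lost without 2C DMSO rep 2 or either MG132 library) and ZP3AR by -2.09 ± 0.408 (adjusted p = 0.00267). These were 3 and 2 of 5 satellite rows, where 52.3% and 38.1% of all repeat subfamilies tested were called in either direction.

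With APH, the log2 difference of GSAT_MM was among the most negative of all subfamilies, in a fit that includes 2C DMSO rep 1. No rank is given without that library. MurSAT1 with APH had a log2 difference of -1.97 ± 1.79 (adjusted p = 0.728), MMSAT4 of -0.24 ± 0.402 (adjusted p = 0.876) and SYNREP_MM of 0.29 ± 1.78 (adjusted p = 0.951). IMPB_01 there had a log2 difference of 0.07 ± 0.27 (adjusted p = 0.923) and ZP3AR of -0.58 ± 0.391 (adjusted p = 0.584). With CHX at 4 cells, ZP3AR had 24.6 and 16.4 CPM against 8.44 and 10.2 in 4C DMSO, a log2 difference of 0.67 ± 0.384 (adjusted p = 0.398). IMPB_01 there had a log2 difference of -0.25 ± 0.268 (adjusted p = 0.692) and MMSAT4 of -0.76 ± 0.266 (adjusted p = 0.161). Values that miss the threshold do not show that these levels were alike.

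MurSAT1, a satellite row of few counts, also had wide differences. It was highest in 2C DMSO, at 1.70 ± 1.11 CPM (71 and 25 counts), and held 0 to 3 counts in each oocyte and AB2.2 library. It held 8 and 9 counts in 2C APH, 0 and 4 in 2C MG132 and 20 and 0 in 2C 12m. At 4 cells it held 6 and 3 counts in 4C DMSO, 1 and 0 in 4C APH, 1 and 16 in 4C CHX and 8 and 20 in 4C MG132. Beside the GSAT_MM values above, its fitted log2 differences from 2C DMSO were -1.97 ± 1.79 with APH, -8.32 ± 2.72 with CHX, -4.46 ± 2.03 with MG132 and -1.82 ± 1.77 in 2C 12m. From 4C DMSO they were -3.05 ± 2.29 with APH, 0.66 ± 2.04 with CHX and 1.71 ± 2.08 with MG132. Between stages they were 4.03 ± 2.17 from MII 8w to 2C DMSO, 6.36 ± 2.89 from MII 12m to 2C 12m and -3.10 ± 2.01 from 2C DMSO to 4C DMSO. Apart from CHX at 2 cells these missed the threshold (adjusted p = 0.102 to 0.92), and against groups without counts (2C CHX, MII 12m) the fitted size depends on the prior count.

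From MII 8w to 2C DMSO, IMPB_01 rose by 1.26 ± 0.35 (adjusted p = 0.0237, a call that needed 2C DMSO rep 2 and MII 8w rep 1) and ZP3AR by 2.21 ± 0.468 (adjusted p = 0.0067), while MMSAT4 had a log2 difference of -1.36 ± 0.251 (adjusted p = 0.00359), a call lost with total counts in place of TMM. From MII 12m to 2C 12m ZP3AR rose by 1.87 ± 0.467 (adjusted p = 0.0164), a call lost without any 1 of the 4 libraries. From 2C DMSO to 4C DMSO IMPB_01 had a log2 difference of -1.13 ± 0.349 (adjusted p = 0.0374, a call that needed 2C DMSO rep 2 and both 4C DMSO libraries) and MMSAT4 of -1.19 ± 0.25 (adjusted p = 0.00639). Repeat subfamilies called in either direction made up 33.4%, 27.2% and 27% in these comparisons. In growing oocytes MMSAT4 was lower with H3.3K4M by -0.80 ± 0.171 (adjusted p = 0.00444), at 58.2 ± 4.58 against 107.5 ± 23.9 CPM, where 32.4% of subfamilies were called; the call was lost without H3.3WT rep 1.

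**Figure D3:**
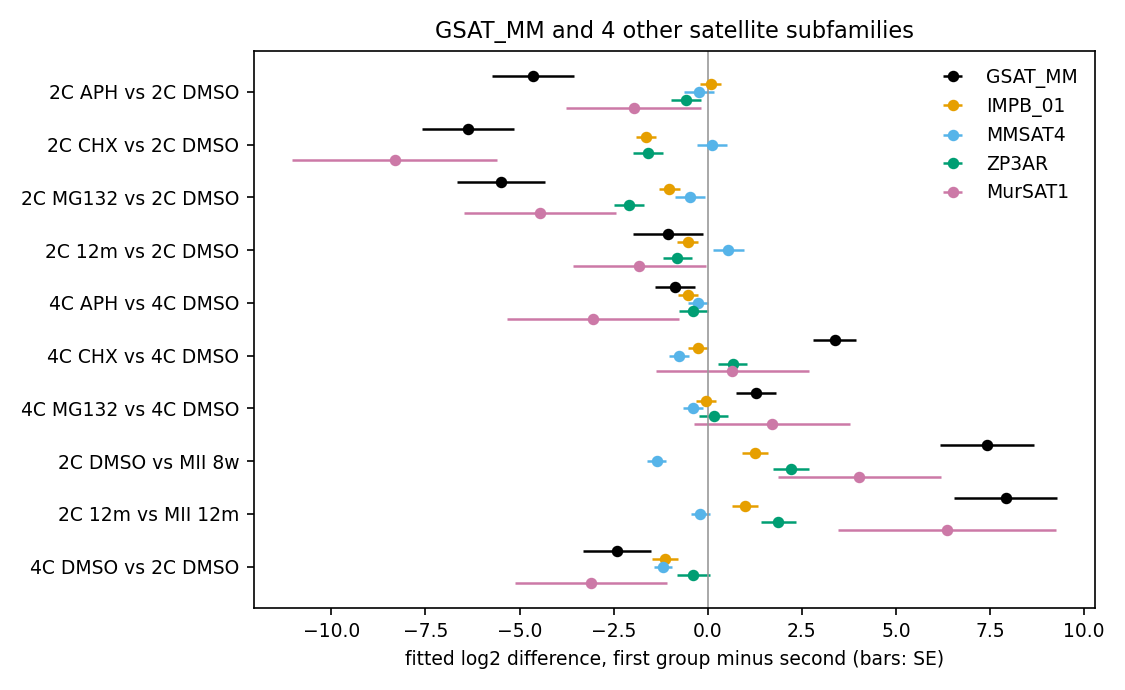
Fitted log2 difference (x axis; first group minus second, bars are SE) of GSAT_MM and 4 other satellite subfamilies in the 10 comparisons in which GSAT_MM could be fitted. GSAT_MM runs from -6.37 in 2C CHX to 7.91 in 2C 12m over MII 12m, MurSAT1, with few counts and wide errors, from -8.32 to 6.36, and IMPB_01, MMSAT4 and ZP3AR stay within -2.09 to 2.21.

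The genes for proteins that act on these arrays were taken from 5 lists of 68 genes: H3K9 and H4K20 methylation with HP1, DNA methylation with remodelling and histone deposition, Polycomb, H3K9 demethylases, and centromere with chromosomal passenger genes. They were tested in the same way, adjusted over all genes, and all values below are log2 differences ± SE unless given in CPM. Results are given for comparisons in which the GSAT_MM libraries did not overlap between the groups. List genes were called outside these too. With CHX in AB2.2 cells GSAT_MM held 2 and 0 counts. There 21 to 52 list genes were called over the alternatives other than left-out libraries. Dnmt3l rose (1.70 ± 0.17) and Aurkc fell (-1.56 ± 0.15), among others, and more of the called genes fell than rose. The share over all genes is not given for this comparison. Calls of list genes are thus not particular to comparisons in which GSAT_MM differed. A change of scaling from TMM to total counts moved the median log2 difference of all genes by -0.40 with CHX at 2 cells, 0.45 with CHX and 0.14 with MG132 at 4 cells, 0.11 with MG132 at 2 cells, 0.81 and 0.38 from MII to 2C at 8 weeks and 12 months, and -0.41 from 2C to 4C.

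With CHX at 2 cells 19 of 65 tested list genes were higher and 8 lower, where 11% and 13% of all genes tested were; their median log2 difference was 0.61, against -0.26 over all genes. With total counts in place of TMM the split was 12 higher and 12 lower. Of 14 H3K9, H4K20 and HP1 genes 5 rose and 1 fell. Mphosph8, a HUSH subunit that binds methylated H3K9, rose from 67.8 to 760 CPM (log2 3.88 ± 0.47) and Trim28, the KAP1 corepressor, from 20.5 to 131 CPM (3.10 ± 0.62), and the H3K9 methyltransferase gene Ehmt1 (1.49 ± 0.43), Cbx1 of HP1 beta (1.49 ± 0.34) and Atf7ip, a partner of Setdb1 (1.33 ± 0.28), rose too. Cbx3, which encodes HP1 gamma, fell from 24.9 to 2.41 CPM (-2.95 ± 0.60). Of 17 DNA methylation and deposition genes 6 rose, led by the maintenance methyltransferase Dnmt1, from 37.9 to 641 CPM (4.48 ± 0.32), Cdca7 (2.12 ± 0.51) and the remodeller Hells (1.71 ± 0.47), and 2 fell, Chaf1b of the CAF-1 chaperone (-2.12 ± 0.49) and Dppa3 (-1.33 ± 0.31). Of 13 Polycomb genes 4 fell, Cbx8 (-5.01 ± 1.29), Cbx7 (-3.86 ± 0.98), Suz12 (-1.62 ± 0.37) and Rnf2 (from 125 to 33.4 CPM), and 2 rose, Phc2 (2.45 ± 0.49) and Cbx2 (2.29 ± 0.41). Among 8 H3K9 demethylases Kdm4c fell (-4.21 ± 0.98) and Kdm4a rose (1.33 ± 0.39). Of 13 centromere genes 5 rose, among them the kinase Aurkc (2.88 ± 0.46), Cenpc1 (2.43 ± 0.73), Bub1 (1.49 ± 0.37) and Cenpa, the centromeric histone H3 (1.43 ± 0.34).

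With MG132 at 2 cells 6 of 65 list genes were higher and 2 lower, where 5.1% and 4.68% of all genes were. Dnmt1 rose from 37.9 to 439 CPM (3.41 ± 0.31), Mphosph8 from 67.8 to 589 CPM (2.98 ± 0.45), Aurkc by 2.71 ± 0.46 and Chaf1a, the large CAF-1 subunit, by 1.84 ± 0.33. Mis18a, which helps load Cenpa, rose by 1.54 ± 0.35 and the H3K9 methyltransferase Setdb1 by 1.09 ± 0.32. Kdm4c (-4.03 ± 0.97) and Cbx3 (-2.44 ± 0.58) fell. The call of Setdb1 was lost without any 1 of the 4 libraries.

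With CHX at 4 cells, where GSAT_MM was highest, 8 of 67 list genes were higher and 12 lower, where 8.77% and 10.3% of all genes were; with total counts the split was 14 higher and 8 lower. Cbx3 fell from 674 to 149 CPM (-2.63 ± 0.44), Cbx5, which encodes HP1 alpha, from 114 to 42.2 CPM (-1.90 ± 0.27) and Trim28 from 129 to 72.2 CPM (-1.29 ± 0.25). Suv39h2, an H3K9 methyltransferase of pericentromeres, rose from 6.58 to 37.3 CPM (2.03 ± 0.44), and Mphosph8 rose by 1.54 ± 0.35. Uhrf1, the partner of Dnmt1, rose from 3.90 to 29.4 CPM (2.46 ± 0.40), while Cdca7 (-2.48 ± 0.44), of the Hells remodeller, and Dppa3 (-2.15 ± 0.34) fell. The Polycomb genes Cbx8 (4.13 ± 0.81), Cbx7 (2.52 ± 0.60) and Bmi1 (2.27 ± 0.41) rose and Eed fell (-2.44 ± 0.27), as did the demethylase gene Kdm3b (-1.60 ± 0.40). Of 14 centromere genes 5 fell, Aurkc (-2.61 ± 0.41), Cenpa (-2.07 ± 0.36), Mis18a (-1.31 ± 0.35), Birc5 (-1.16 ± 0.20) and Hjurp (-1.02 ± 0.28), and Cenpc1 (1.60 ± 0.43) and Sgo2a (1.48 ± 0.36) rose. Without any 1 library 11 to 13 list genes were called; the call of Suv39h2 was lost without 4C CHX rep 1 or either 4C DMSO library, and that of Cbx7 without any 1 of the 4.

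With MG132 at 4 cells 3 of 67 list genes rose and 3 fell, where 3.06% and 4.33% of all genes did. Bmi1 (2.41 ± 0.41), Pcgf6 (1.14 ± 0.23) and Suz12 (1.10 ± 0.22), all of Polycomb complexes, rose. Cdca7 (-2.39 ± 0.44), Aurkb (-2.12 ± 0.50) and Birc5 (-1.06 ± 0.20), the last pair of the chromosomal passenger complex, fell. Without 1 library, 0 to 3 of these 67 genes were called. With APH at 2 cells Mis18a was the only list gene called. It rose (2.11 ± 0.35) from 43.7 to 194 CPM, a call lost with total counts, without 2C APH rep 1 and without either 2C DMSO library. No list gene was called with APH at 4 cells. The share over all genes is not given for either APH comparison.

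**Figure D4:**
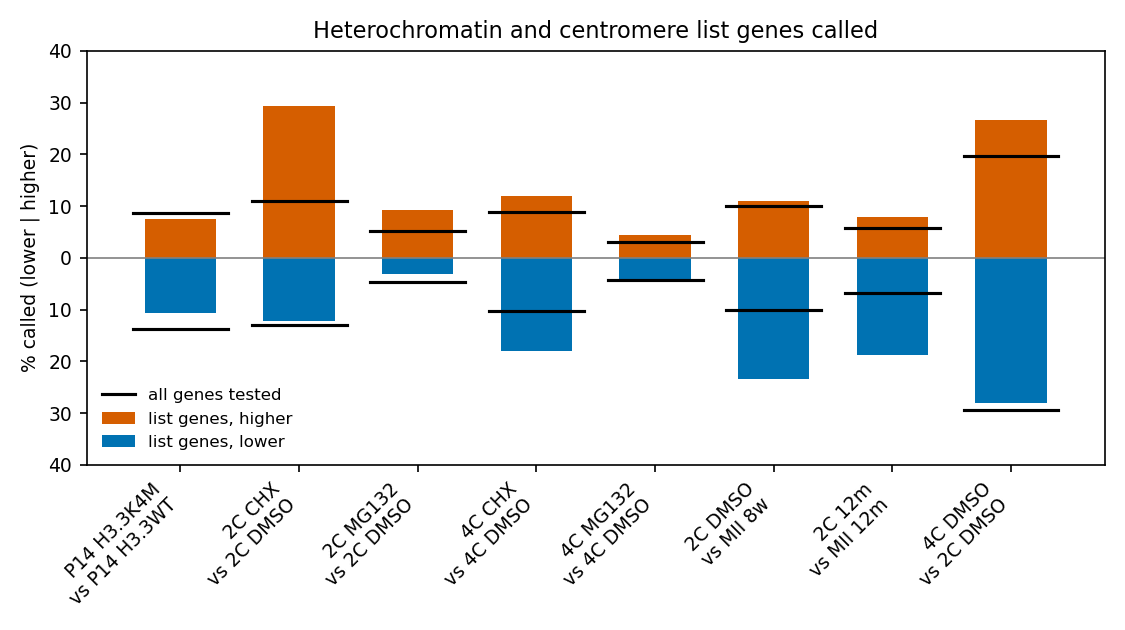
Share of the tested genes of the 5 lists called higher (up) and lower (down) in 8 comparisons, in percent; black lines give the same share over all genes tested. List genes stand above all genes on the higher side in each of these except the growing oocytes, most for 2C CHX (19 of 65), and on the lower side for 2C DMSO over MII 8w (15 of 64), 2C 12m over MII 12m (12 of 64), 4C CHX (12 of 67) and, by little, 4C MG132 (3 of 67); with total counts the splits are 12 higher and 12 lower for 2C CHX, and 16 and 6 for 2C DMSO over MII 8w.

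From MII 8w to 2C DMSO 7 of 64 list genes were higher and 15 lower, where 10.1% and 10.1% of all genes were. The split depended on the scaling: it was 9 and 10 with library sizes from genes only, and 16 and 6 with total counts, whose median over all genes was 0.81 higher. Mphosph8 fell to 67.8 CPM (-4.67 ± 0.42), Aurkc to 16.1 CPM (-4.17 ± 0.44) and Dnmt1 from 165 to 37.9 CPM (-2.92 ± 0.27), and Trim28 (-2.46 ± 0.48), Sgo2a (-2.41 ± 0.41), Cenpc1 (-2.10 ± 0.59), Smarca5 (-1.76 ± 0.35), Cbx1 (-1.36 ± 0.31) and Cdca8 (-1.06 ± 0.25) fell. Of the Polycomb genes Eed (-1.55 ± 0.32) and Ezh2 (-0.93 ± 0.25) fell. Under total counts the calls of Cenpc1, Smarca5, Cbx1, Cdca8, Eed and Ezh2 were lost. The demethylases Kdm4c (3.79 ± 0.86), Phf8 (2.31 ± 0.39) and Kdm4a (1.55 ± 0.47) rose, as did Chaf1b (2.88 ± 0.53), Dnmt3l (2.10 ± 0.47) and Atf7ip (1.38 ± 0.29). From MII 12m to 2C 12m 5 were higher and 12 lower, where 5.8% and 6.76% of all genes were. Among those lower, Mphosph8 (-3.24 ± 0.39), Cenpc1 (-3.59 ± 0.63), Aurkc (-2.75 ± 0.42), Dnmt1 (-2.62 ± 0.26), Daxx (-2.42 ± 0.55), Sgo2a (-2.29 ± 0.41), Trim28 (-2.28 ± 0.48), Hells (-1.67 ± 0.32) and Cbx1 (-1.57 ± 0.31) fell. Kdm4c (5.07 ± 0.99), Chaf1b (3.05 ± 0.53), Dnmt3a (1.49 ± 0.39), Phf8 (1.37 ± 0.38) and Atf7ip (1.10 ± 0.29) rose. Without any 1 library 6 to 13 list genes were called, and the calls of Dnmt3a, Phf8 and Atf7ip were lost without any 1 of the 4.

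From 2C DMSO to 4C DMSO, as GSAT_MM was lower, 17 of 64 list genes were higher and 18 lower, where 19.6% and 29.4% of all genes were; with DESeq2 size factors the split was 22 and 16. Cbx3 rose from 24.9 to 674 CPM (5.17 ± 0.33), Kmt5b, an H4K20 methyltransferase, by 3.38 ± 0.55, Trim28 by 3.08 ± 0.49 and the H3K9 methyltransferase gene Ehmt2 from 0.455 to 13.7 CPM, while Suv39h2 fell from 80.5 to 6.58 CPM (-3.20 ± 0.38). Uhrf1 fell from 191 to 3.90 CPM (-5.21 ± 0.49) and Dnmt1 from 37.9 to 9.89 CPM (-1.52 ± 0.26), while the H3.3 chaperone gene Hira (3.48 ± 0.89), Cdca7 (2.78 ± 0.49) and Smarca5 (1.65 ± 0.35) rose. Of 13 Polycomb genes 7 fell, among them Phc1 (-3.32 ± 0.73), Scmh1 (-2.65 ± 0.70), Bmi1 (-2.58 ± 0.27), Cbx2 (-2.06 ± 0.44) and Ezh2 (-1.80 ± 0.25). All 7 tested H3K9 demethylases were called, 4 higher and 3 lower. Kdm4c (3.68 ± 0.78), Kdm3a (3.35 ± 0.65) and Kdm3b (2.21 ± 0.64) rose, as did Kdm4b, from 0.0183 to 1.33 CPM. Phf8 (-3.08 ± 0.40) and Kdm4a (-2.96 ± 0.50) fell, and Phf2 went from 4.17 CPM to no counts. Among the centromere genes Aurkc (3.13 ± 0.42), Aurkb (2.67 ± 0.78), Incenp (1.49 ± 0.36) and Cenpa (1.19 ± 0.32) rose, and Sgo1 (-1.27 ± 0.26) fell.

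In growing oocytes 5 of 66 list genes were higher with H3.3K4M and 7 lower, where 8.64% and 13.7% of all genes were; the split was 6 and 5 with DESeq2 size factors. Cdca7 fell from 5.86 to 2.01 CPM (-1.48 ± 0.27), Dnmt3l, the cofactor of de novo DNA methylation in oocytes, from 44.1 to 21.3 CPM (-0.97 ± 0.21) and Atrx, a remodeller that deposits H3.3, from 109 to 63.5 CPM (-0.69 ± 0.17). The Polycomb genes Suz12 (-0.75 ± 0.24), Ezh2 (-0.59 ± 0.19) and Eed (-0.53 ± 0.17) fell, and Ring1 (1.83 ± 0.49) and Cbx8 (1.37 ± 0.32) rose at levels under 2 CPM. Aurkc rose from 136 to 251 CPM (0.95 ± 0.17), Bub1 by 0.73 ± 0.17 and Cenpa by 0.56 ± 0.16. Without H3.3WT rep 1, 4 list genes were called, and the calls lost included those of Atrx, Suz12, Ezh2, Eed, Ring1, Cbx8 and Cenpa.

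Genes and subfamilies with a pattern like that of GSAT_MM were ranked by Pearson's r of log2(CPM + 1) over the 16 group means, among 12266 genes and 604 subfamilies with at least 10 CPM in some group. These values are a description, since GSAT_MM was chosen for its pattern and the groups share their depth and stage. Predicted gene models (symbols of Gm followed by digits, or ending in Rik) were left out, among them Gm10800 of the same repeat. The 5 genes were the homeobox gene Obox3 (r = 0.96), BB287469 (0.957), Duox2, an NADPH oxidase (0.957), the pseudogene Obox3-ps3 (0.945), whose reads can be shared with Obox3, and Lrrc37a (0.939). Obox3 had 76.2 CPM in 4C CHX, 82.8 in 2C DMSO, 5.72 in 4C DMSO and 0.948 in 2C CHX. The 5 subfamilies were MLTR25C (0.949), IAPEY3_LTR (0.912), Charlie1b (0.899), RLTR9A (0.898) and Arthur1B (0.895). MLTR25C had 17.9 CPM in 4C CHX, 8.66 in 2C DMSO, 3.87 in 4C DMSO and 0.714 in 2C CHX. Over the 13 Smart-seq2 groups alone, 3 of the 5 genes and 3 of the 5 subfamilies stayed among the first 5, and by Spearman's rho over the 16 groups 1 of the 5 genes (Obox3) and 0 of the 5 subfamilies did, the latter at ranks 45 to 171. Over the 13 groups Sfmbt2 came first with r = 0.983 (-0.03 over all 16 groups).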

How the data were processed

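Smart-seq2 was used for oocytes and embryos, and a TruSeq kit after poly(A) capture for AB2.2 cells, per the labels' protocols. The authors deposited raw counts of 55335 genes and 1153 repeat subfamilies in each sample, without normalization. The submitters' processing notes name cutadapt 1.16, STAR and the build mm10; no source used here gives the counter, its annotation, its use of strand or how it counted reads that map to many places. Gene identifiers were matched to GENCODE M21 of the same build without version number (55154 matched).

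GSAT_MM, its gene lists and the tests were chosen with earlier results of these data known. CPM used all counts of a library. Fits used edgeR 4.0.16 in R 4.3.3 (filterByExpr by group with a minimum count of 10 and total of 15, TMM over genes and repeats, quasi-likelihood test, Benjamini-Hochberg threshold 0.05 over genes and over repeats separately), with 1 fit per stage and 1 for MII 8w, MII 12m, 2C DMSO, 2C 12m and 4C DMSO. GSAT_MM passed the filter in 10 of 14 comparisons. Ratios at low counts have exact 95% conditional intervals. Reads carry no molecular identifiers, so intervals cover counting error only. Over all rows compared, the libraries of each group differed by more than counting error. Chi-square per degree of freedom ran from 3.03 in ESC CHX to 277 in 4C APH, with 98.9 in 2C DMSO and 253 in MII 8w. Such intervals are thus too narrow for the difference between libraries. Satellite gene models were found from the best self-match shift of a Gm26870 transcript and blastn 2.17.0 (E-value 1e-10). The fit of the 2C libraries was tried on simulated counts with the same spread set for all rows. That setting does not copy the spread of these libraries, so it does not check the fits at that spread. Named were GSAT_MM, other satellite rows of at least 1 CPM in some group and, with predicted gene models left out, the 5 genes and 5 subfamilies most alike. Up to 4 called members per list were named by size, in comparisons in which the GSAT_MM libraries did not overlap. Further list genes and SYNREP_MM were named after their values were seen. A member of the centromere list is counted but not reported here.

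Same-numbered libraries deviated together among 2C APH, CHX, MG132 and DMSO (correlations 0.188 to 0.4 over 6 pairs, 9713 genes), so their numbers may pair them; the fits reported carry no block, and the fit with one is an alternative. This comes from the data, not the labels, and 2C 12m stands outside it (-0.0195 to 0.0585). In growing oocytes same-numbered libraries deviated in opposite directions (correlation -0.39, 8561 genes), and less so in MII oocytes (-0.125, 7349 genes). A crossed block was therefore added for these as an alternative, and the fits reported do not carry it. Alternatives were DESeq2 1.42.0 size factors and its Wald test, gene-only library sizes, total counts, no filter, only the compared groups, a replicate block, each library left out and, added after seeing the data, a crossed block and GSAT_MM summed with the satellite gene rows.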

Additional observations from a re-analysis of the deposited data

Results flagged for a closer look

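2 differences were singled out because the same drug went with opposite directions in the embryos of the 2 stages, in every library, against the vehicle of that stage; neither difference was tested. With CHX, GSAT_MM had a log2 difference of -6.37 at 2 cells and 3.38 at 4 cells, 9.74 apart. With MG132 the values were -5.50 and 1.29, 6.8 apart. The 2C and 4C embryos have separate vehicle groups, and no dose or time is given in the sources used here. Groups of 2 libraries are too small for a check of single outlying libraries, so the gap between the 2C DMSO libraries is given in values only.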

How the results depend on the processing

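The log2 difference of GSAT_MM kept its direction in every alternative run except 2C 12m against 2C DMSO, which turned to 0.45 without 2C DMSO rep 1. Of 110 alternative values, 104 moved by less than the spread between libraries. That spread is wide for 2C DMSO (29.5 and 5.78 CPM) and 2C MG132 (0.896 and 0.0344 CPM). Large shifts can therefore stay within it, and the count of 104 does not show stable sizes at 2 cells. With total counts in place of TMM, 4C CHX against 4C DMSO moved to 3.82, and with the satellite gene rows added to GSAT_MM to 3.90 (from 3.38). Leaving out 1 library gave -5.34 to -3.10 for 2C APH, -7.47 to -4.80 for 2C CHX, -8.84 to -3.89 for 2C MG132, -1.79 to 0.45 for 2C 12m, -1.58 to -0.39 for 4C APH, 3.16 to 3.58 for 4C CHX, 0.88 to 1.60 for 4C MG132, 6.02 to 11.58 for 2C DMSO over MII 8w, 7.04 to 10.51 for 2C 12m over MII 12m, and -3.23 to -0.95 for 4C DMSO over 2C DMSO; a group of 1 library is assumed to vary like the others. With the replicate block the 2C values were -4.29 (APH), -5.97 (CHX) and -5.51 (MG132). The list count with CHX at 2 cells was 33 with the replicate block and 27 without it, and a crossed replicate block in growing oocytes called 27 list genes in place of 12. Over alternatives other than left-out libraries, list counts ran from 17 to 33 with CHX at 2 cells (27 as reported), 5 to 14 with MG132 at 4 cells (6) and 8 to 27 in growing oocytes (12); with 1 library left out, from 11 to 13 with CHX at 4 cells (20), 0 to 3 with MG132 at 4 cells, 6 to 13 from MII 12m to 2C 12m (17), and 4 to 13 in growing oocytes. Relative to repeat counts 5 of 16 groups kept their place in the order of levels, and relative to gene counts 16 of 16. In growing oocytes, MII oocytes and AB2.2 cells GSAT_MM did not pass the low-count filter and has no fitted value; for growing and MII oocytes a fit of the compared groups alone is the fit reported. The cause of these shifts was not tested.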

Other observations

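The other satellite rows MMSAT4, ZP3AR and IMPB_01 had their highest levels in other groups than GSAT_MM, as group means and with no test; MurSAT1 was highest in 2C DMSO, the second group in the order of GSAT_MM. MMSAT4 was highest in MII 8w, at 1720 CPM, followed by 2C 12m at 1365 CPM and MII 12m at 1217 CPM, and lowest in growing oocytes, at 58.2 CPM with H3.3K4M and 107.5 CPM with H3.3WT. ZP3AR was highest in AB2.2 cells, at 29.3 to 35.9 CPM, where GSAT_MM had at most 2 counts in a library, and stood at 20.5 CPM in 4C CHX. IMPB_01 was highest in 2C APH, at 209.6 CPM, and in 2C DMSO, at 192 CPM.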
